A study of Mus musculus with 6 samples.

Results

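The genes described here encode 27 transcription factors of limb patterning and skeletal development, read in the forearm bones (radii and ulnae) of newborn mice. They were taken by gene symbol from the HOX, T-box, SOX, RUNX, MEF2 and TWIST families and from the homeobox genes Meis, Pbx, Prrx, Msx, Pitx, Shox2, Mkx and Six5. These 27 genes stand among 5780 genes with 1 symbol and 8997 probe sets in all, and each was read by 1 probe set. The study compared 3 arrays of wild-type bone with 3 arrays of bone from mutant littermates, whose Tnni2 gene carries del175k; all mice were of strain 129sv. Tnni2 encodes the fast skeletal muscle form of troponin I, so the mutated gene is a muscle gene while the tissue read is bone with whatever adheres to it. The labels give neither the zygosity of the mutants nor whether an array held the bone of 1 mouse. The spread behind each p-value is therefore that between arrays, and part of it may be technical.

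HOX factors assign position along the limb, with the paralogs at the far end of the clusters shaping the forearm and hand. T-box factors act in limb initiation and in the mesenchyme around joints and muscles, and Tbx5 marks the forelimb. SOX9 with SOX5 and SOX6 drives cartilage formation, RUNX factors drive chondrocyte maturation and bone formation, TWIST factors hold back osteoblast differentiation, and MEF2 factors act in muscle and in hypertrophic chondrocytes.

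Values are intensities, the summarised brightness of a probe set on a linear scale, and the brightness of different probe sets does not compare amounts of RNA between genes. No probe set of the deposited table was under 20 on more than 3 arrays, so the table was filtered by level. RefSeq holds 102 protein-coding genes whose symbols match the same names, and for 75 of them, including Hoxa11, Hoxa13, Tbx4, Pitx1, Tbx3, Meis1, Meis2, Shox2, Msx1, Sox5 and Runx2, no value was analysed here. The 27 genes were dim, with means over the 6 arrays between 17.6 and 95.03, and 19 of them lay below 46.8, the median of that mean over all probe sets. In 11 of the 27 at least 1 array was under 20. The labelled tissue was checked by its markers: 7 of 10 listed osteoblast markers had a value and summed to 13447 to 17505 per array, and 13 of 13 chondrocyte markers summed to 5574 to 8280. Markers of other tissues had values too. The 11 of 12 muscle markers summed to 4575 to 9436, and the 7 of 12 epidermal markers to 58.6 to 1839. Such sums do not measure the share of a tissue.

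The array of wild-type replicate 1 stood apart. It was the lowest of the 6 arrays for 4499 of the 8997 probe sets and the highest for 1138. The differences of the genes and lists on which it bears are therefore also given without it. Marker sums are given with all arrays.

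By limma, 0 of the 27 genes passed an adjusted p of 0.05 between mutant and wild-type bone, as did 0.0% of all probe sets. Among the 27 the lowest adjusted value was that of Tbx18 (adjusted p = 0.638). At an unadjusted p under 0.05 there were 4 genes (background 7.44%), of which Tbx5, Tbx18 and Mkx had higher and Prrx2 had lower levels in the mutants. That is 3 of 27 higher, against a background of 5.74% of all probe sets, and 1 of 27 lower, against 1.7%. Of these, Tbx18 and Prrx2 are in the table only through the group in which they are high, so the level of 20 conditions their differences and p-values too, and nothing is read from them. Among the other 25 genes there were 2 higher, Tbx5 and Mkx, and 0 lower. The log2 difference, mutant minus wild-type, had a median of 0.11 over the 27 genes and 0.04 over all probe sets. Higher means were seen in 17 of the 27 genes, where 56.7% of all probe sets had higher means. Without wild-type replicate 1 the background turned: 44.7% of all probe sets had higher means and their median was -0.03, against 18 of the 27 genes and a median of 0.04. All mutant arrays lay above all wild-type arrays in 4 genes (background 9.18%) and below them in 1 (background 3.89%). For 2 of these 5 genes, Tbx18 and Prrx2, that order was fixed in advance by the level of 20, as described with each.

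**Figure D1:**
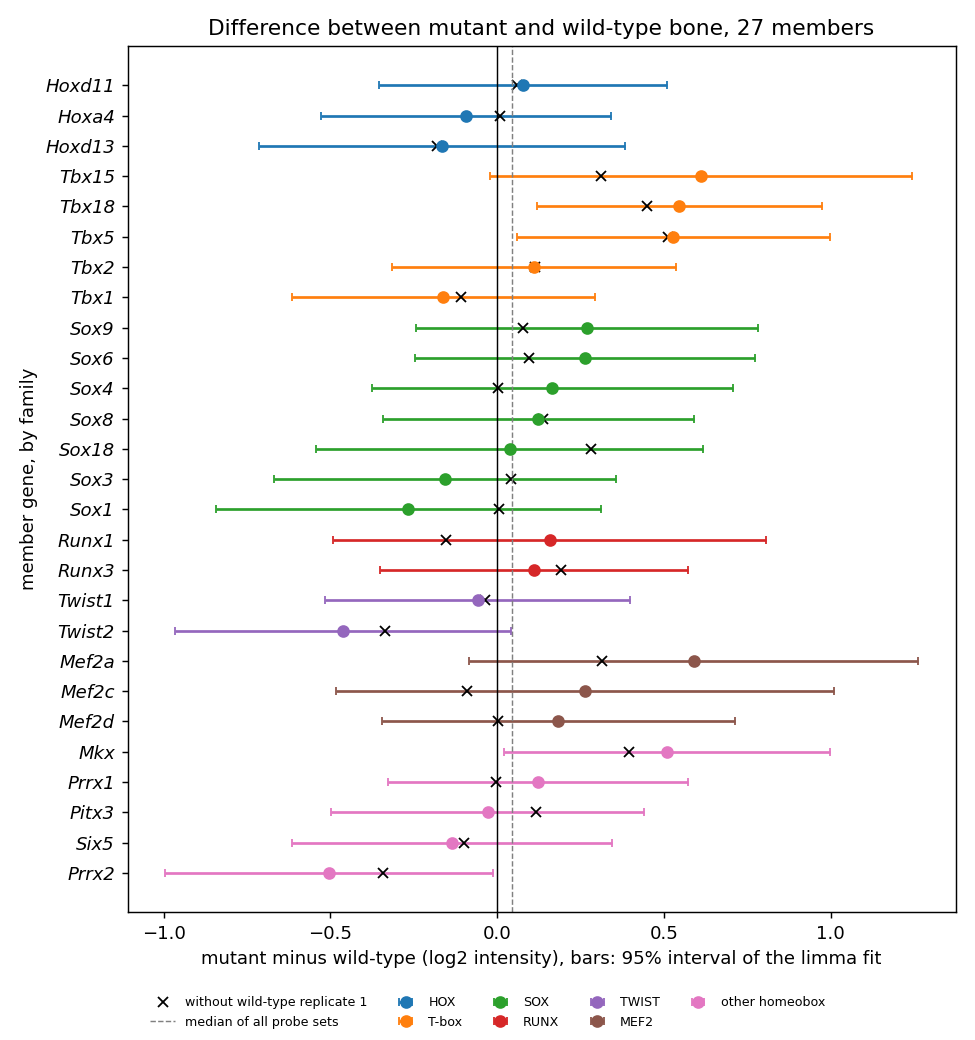
Mutant minus wild-type difference in log2 intensity (horizontal axis) for the 27 genes, ordered by family (vertical axis); points are estimates of the limma fit with 3 arrays per group, bars are 95% intervals, and crosses are the estimates without wild-type replicate 1. The intervals of Tbx5, Tbx18, Mkx and Prrx2 leave out 0, and the crosses of Hoxa4, Sox1, Sox3, Runx1, Mef2c, Prrx1 and Pitx3 lie on the other side of 0 from their points.

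The 5 T-box genes include Tbx18, which has a value only because of its mutant arrays, so no median is read over the family. Among the others, Tbx15 and Tbx5 differed by 0.61 and 0.53 on the log2 scale, Tbx2 by 0.11 and Tbx1 by -0.16. Without wild-type replicate 1 these differences were 0.31, 0.51, 0.11 and -0.11. Tbx5, which is required to start forelimb outgrowth, had intensities of 25.3, 24.9 and 27.5 on wild-type replicates 1 to 3 and of 45.9, 31.0 and 36.6 on the mutant arrays. Every mutant value lay above every wild-type value, all 6 arrays were above 20, and the wild-type arrays were close together. The means were 25.9 ± 1.40 and 37.8 ± 7.5 (SD, n = 3 each), a log2 difference of 0.53 ± 0.21 (SE), or 1.44-fold, with a 95% interval of 0.06 to 0.998 (limma adjusted p = 0.667). Without wild-type replicate 1 the difference was 0.51, and over the 6 ways of leaving out an array it ranged from 0.38 to 0.66.

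Tbx15, which acts in the growth of limb cartilage and in muscle fibre type, was at 24.0, 42.9 and 46.7 in the wild-type and at 68.2, 48.2 and 52.0 in the mutants. The groups did not overlap, but the gap between the highest wild-type and the lowest mutant array was small and wild-type replicate 1 was far below the rest. Its log2 difference was 0.61 ± 0.28 (limma adjusted p = 0.686) and 0.31 without that array. Tbx18, a marker of mesenchyme around vessels, ureter and early somite, was at 12.5, 15.8 and 14.8 in the wild-type and at 20.2, 21.1 and 21.3 in the mutants. All wild-type arrays were under 20, so the probe set was kept only because all 3 mutant arrays reached 20, and its order says nothing further. Its log2 difference was 0.55 ± 0.19 (limma adjusted p = 0.638), and 0.45 without wild-type replicate 1.

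In the remaining T-box genes the groups overlapped. Tbx2, a repressor that limits growth in limb mesenchyme, was at 45.2, 43.5 and 46.3 in the wild-type and at 55.6, 45.0 and 45.7 in the mutants, where only mutant replicate 1 stood out. The 95% interval of its difference ran from -0.32 to 0.54. Tbx1, a factor of pharyngeal and muscle development, was at 34.3 ± 3.02 and 30.9 ± 4.77 (SD, n = 3 each), with overlapping groups and an interval of -0.61 to 0.29. Mutant replicate 1 was the highest of all arrays for Tbx2, Tbx5 and Tbx15.

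**Figure D2:**
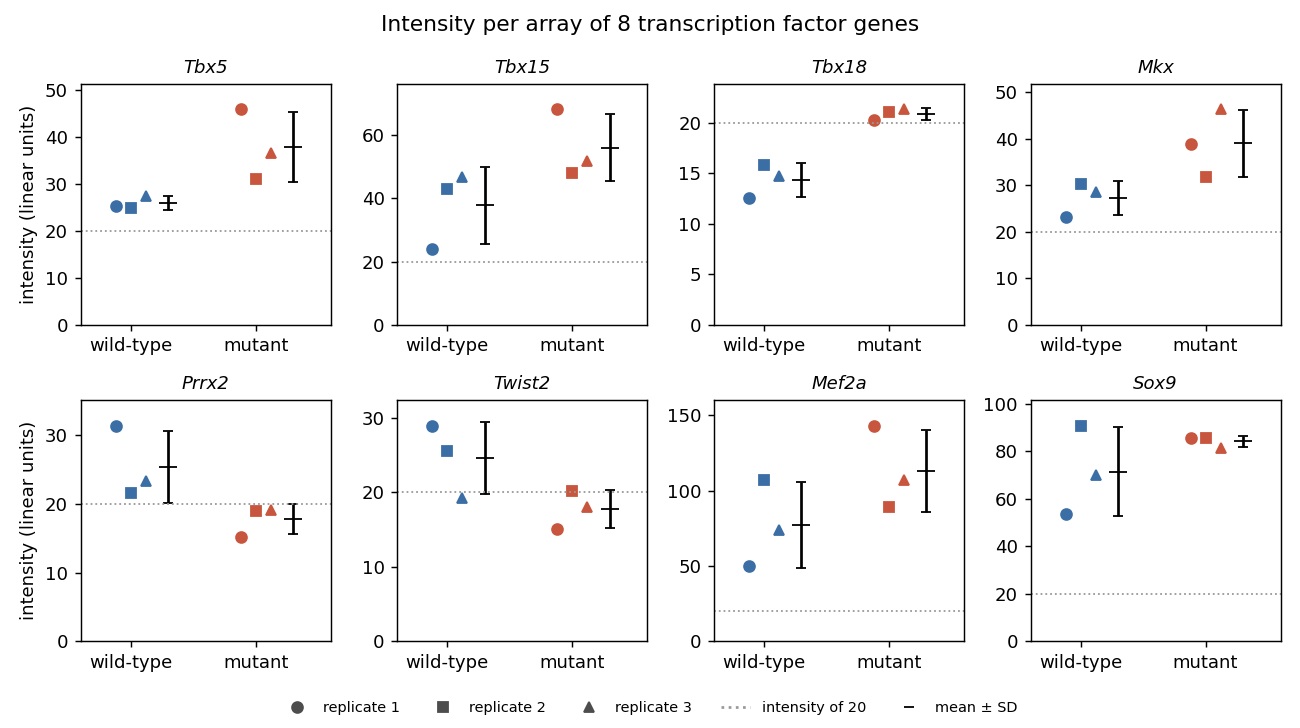
Intensity (vertical axes, linear units from 0) of 8 genes on each of the 3 wild-type and 3 mutant arrays; symbols mark the replicate number, black bars the mean ± SD and dotted lines an intensity of 20. The mutant arrays lie above all wild-type arrays for Tbx5, Tbx15, Tbx18 and Mkx and below them for Prrx2, while Twist2, Mef2a and Sox9 overlap.

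Among the homeobox genes outside the HOX clusters, 2 had higher and 3 had lower means in the mutants. Mkx (Mohawk), a regulator of tendon differentiation, was at 23.2, 30.2 and 28.5 in the wild-type and at 39.0, 31.9 and 46.3 in the mutants, so the groups did not overlap. Its means were 27.3 ± 3.63 and 39.0 ± 7.21 (SD, n = 3 each), a log2 difference of 0.51 ± 0.22, or 1.42-fold (limma adjusted p = 0.667), and 0.40 without wild-type replicate 1. The 5 tendon markers Scx, Tnmd, Thbs4, Fmod and Kera summed to 1134 to 1362 in the wild-type and 1201 to 1462 in the mutants. In that list 3 genes had higher and 2 lower means, and Scx, the tendon factor scleraxis, was at 43.3, 36.6 and 68.7 in the wild-type and at 23.1, 26.1 and 57.7 in the mutants.

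Prrx1 and Prrx2 are paired-related homeobox genes of limb bud mesenchyme. Prrx2 was at 31.4, 21.5 and 23.4 in the wild-type and at 15.3, 19.0 and 19.1 in the mutants, where all 3 arrays were under 20 and all 3 wild-type arrays above it. A probe set this dim in the mutants was kept only if every wild-type array reached 20, so its order too was fixed by that level. The log2 difference was -0.50 ± 0.22 (limma adjusted p = 0.669), and -0.34 without wild-type replicate 1, its highest array. Prrx1 was at 68.4, 93.5 and 84.6 in the wild-type and at 83.0, 89.9 and 93.5 in the mutants. Its groups overlapped widely, with an interval of -0.33 to 0.57. Pitx3, a factor of lens and muscle, and Six5, a partner of EYA proteins in muscle, had differences of -0.03 and -0.14, and each had arrays on both sides of 20 in both groups. Six5 was under 20 on 1 wild-type and 2 mutant arrays, so the level of 20 conditions its difference.

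Twist1 and Twist2 encode basic helix-loop-helix repressors of osteoblast differentiation, and Twist2 is also a factor of the dermis. Twist2 was at 28.9, 25.6 and 19.3 in the wild-type and at 15.0, 20.1 and 18.01 in the mutants. The 2 highest values were wild-type replicates 1 and 2, and wild-type replicate 3 lay within the mutant range. Its log2 difference was -0.46 ± 0.23 (limma adjusted p = 0.698), and -0.34 without wild-type replicate 1. With 1 wild-type and 2 mutant arrays under 20, it only just reached the level needed for a value, which conditions this difference. The 7 epidermal markers with a value, of 12 listed, summed to 1839, 1281 and 58.6 in the wild-type and to 85.1, 483 and 61.1 in the mutants. The 3 arrays with the most epidermal signal, wild-type replicates 1 and 2 and mutant replicate 2, were also the 3 with the highest Twist2 values. Twist2 and the epidermal markers Lor, Krtdap, Lgals7, Krt14, Krt10 and Krt5 reached 20 on these 3 arrays only. Each of them thus had a value only through these arrays, so the level of 20 conditions this match and nothing is read from it. The hair follicle and dermis list had 3 of 8 genes with a value, Dpt, Crabp1 and Dkk2. They summed to 136, 203 and 149 in the wild-type and to 112, 116 and 162 in the mutants. By array these sums did not rank as Twist2 did, with mutant replicate 3 above wild-type replicate 1. The differences of the 3 genes were -0.52, -0.60 and 0.27, so 2 had lower means and 1 a higher mean, and the sums overlapped. The part of skin in the values of Twist2 was not tested, and in bulk tissue fewer cells of a type and less RNA per cell cannot be told apart. Twist1 was at 63.7, 71.9 and 51.5 in the wild-type and at 55.0, 60.4 and 62.9 in the mutants, a difference of -0.06 with an interval of -0.52 to 0.40.

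**Figure D3:**
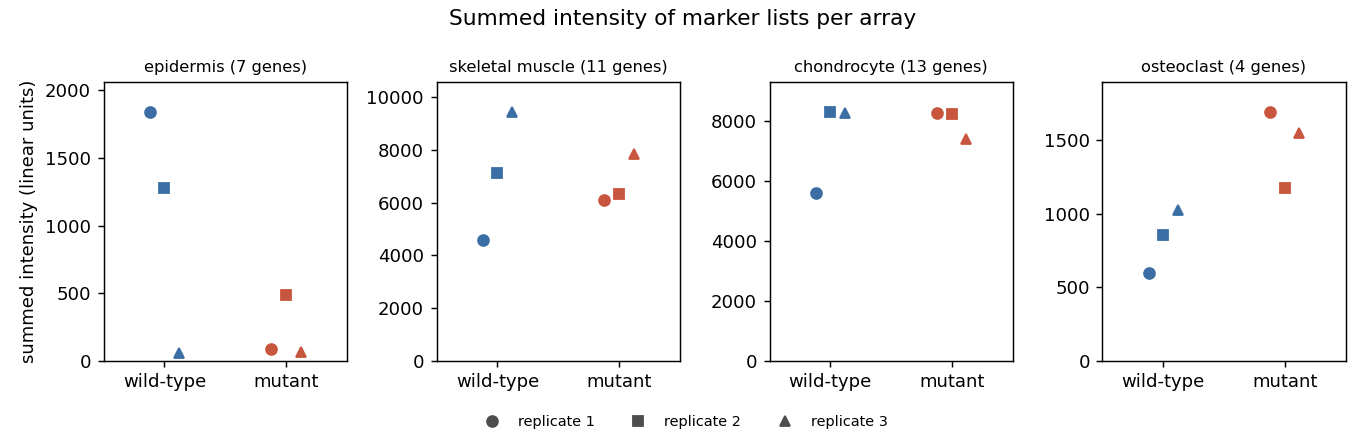
Summed intensity (vertical axes, linear units from 0) of the markers of 4 cell types on each wild-type and mutant array, with symbols for the replicate number. Epidermal signal is high on wild-type replicates 1 and 2 at 1839 and 1281, and the osteoclast sums of the groups do not overlap.

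Cartilage factors of the SOX family showed no difference that passed. Sox9, the master regulator of chondrocytes, was at 53.4, 90.5 and 70.1 in the wild-type and at 85.5, 85.5 and 81.4 in the mutants. The mutant arrays lay close together, inside a wide wild-type range whose lowest value was replicate 1. The means were 71.4 ± 18.6 and 84.1 ± 2.34 (SD, n = 3 each), a log2 difference of 0.27 ± 0.23 (95% interval -0.24 to 0.78; limma adjusted p = 0.771), and 0.08 without that array. Sox6, its partner at cartilage enhancers, was at 22.0, 34.4 and 28.5 in the wild-type and at 32.4, 29.7 and 38.9 in the mutants. Its difference was 0.26 ± 0.23, and 0.09 without wild-type replicate 1. Of 14 cartilage targets of SOX9, all with a value, 10 had higher and 4 lower means, 0 passed, and the median difference was 0.10. Without wild-type replicate 1 this turned to 4 higher and 10 lower, with a median of -0.07. The targets of smallest p were Hapln1 at 0.44 ± 0.27 and Matn1 at 0.31 ± 0.21, which encode proteins of the cartilage matrix. Without that array they were at 0.16 and 0.17.

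The remaining SOX genes were spread around the wild-type level. Sox4, a factor of mesenchymal and osteoblast progenitors, was at 21.9, 32.2 and 29.3 in the wild-type and at 27.6, 26.5 and 39.8 in the mutants, with mutant replicate 3 the highest. Sox8, a relative of Sox9, was at 26.7 ± 2.72 and 29.2 ± 4.98 (SD, n = 3 each). Sox18, a factor of blood and lymph vessel endothelium, was at 49.97, 24.96 and 36.3 in the wild-type and at 37.8, 36.2 and 35.8 in the mutants. Its wild-type arrays thus spanned a range that enclosed the mutants, and its difference was 0.04 ± 0.26. The 7 endothelial markers with a value summed to 190 to 278 in the wild-type and 238 to 294 in the mutants. Sox1 and Sox3, known for neural progenitors, were at 36.4 and 37.7 on wild-type replicate 1 and between 18.8 and 28.0 on the other arrays.

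Runx1, a factor of blood cells and early cartilage, was at 19.3, 36.7 and 37.4 in the wild-type and at 41.4, 31.6 and 28.2 in the mutants. Its difference was 0.16 ± 0.29 with all arrays and -0.15 without wild-type replicate 1, so its sign rested on that array. Runx3, which acts with Runx2 in chondrocyte maturation, was at 24.8, 19.1 and 22.9 in the wild-type and at 27.3, 24.1 and 20.9 in the mutants (0.11 ± 0.21). Of 12 listed RUNX2 targets 9 had a value, 7 with higher and 2 with lower means, and 0 passed. Leaving out wild-type replicate 1 gave 5 higher and 4 lower, and the median went from 0.19 to 0.02. Mmp13, the collagenase of hypertrophic cartilage, was at 136, 269 and 295 in the wild-type and at 685, 445 and 351 in the mutants (1.10 ± 0.34, limma adjusted p = 0.591), and its difference was 0.75 without that array. The 4 osteoclast markers with a value, of 7 listed, summed to 594 to 1028 in the wild-type and 1177 to 1690 in the mutants, beside this gene, and their part in its values was not tested. Ihh, the hedgehog ligand of prehypertrophic chondrocytes, differed by -0.45 ± 0.23, and by -0.39 without that array.

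All 3 MEF2 genes had higher means in the mutants, with a median difference of 0.26. That median was 0.0017 when wild-type replicate 1 was left out, with 2 of the 3 higher. Mef2a was at 50.3, 107 and 74.0 in the wild-type and at 143, 89.0 and 107 in the mutants. Its log2 difference was 0.59 ± 0.30, or 1.504-fold (95% interval -0.08 to 1.26; limma adjusted p = 0.708), with overlapping groups, and 0.31 without wild-type replicate 1. Mef2c, which drives chondrocyte hypertrophy, was at 41.2, 89.4 and 82.4 in the wild-type and at 66.0, 69.4 and 114 in the mutants. With all arrays its difference was 0.26 ± 0.33, and without wild-type replicate 1 it was -0.09. Mef2d was at 52.9, 80.4 and 74.3 in the wild-type and at 93.5, 76.5 and 64.8 in the mutants, a difference of 0.18 that was 0.0017 without that array. The 11 muscle markers with a value summed to 4575, 7111 and 9436 in the wild-type and to 6090, 6339 and 7858 in the mutants. Wild-type replicate 1 was the lowest array for these sums as for each MEF2 gene. This was not particular to muscle. It was also the lowest for the osteoblast, chondrocyte, osteoclast, tendon and endothelial sums, though not the epidermal ones, and for 4499 of all 8997 probe sets. The part of muscle in the MEF2 values was not tested. Of 14 listed myogenic factors and MEF2 partners 5 had a value, and 0 passed; Hdac5, a deacetylase that represses MEF2, differed by 0.23 ± 0.20 and Myog, the muscle factor myogenin, by 0.17 ± 0.20. Both were at 0.15 without wild-type replicate 1.

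The 3 HOX genes with a value were dim and showed no separation of the groups. Hoxd11, of the paralogs that pattern radius and ulna, was at 21.6, 25.4 and 19.9 in the wild-type and at 22.4, 24.8 and 23.1 in the mutants (0.08 ± 0.19, 95% interval -0.35 to 0.51). Hoxd13, a gene of hand and wrist, was at 21.0, 27.5 and 17.0 in the wild-type and at 23.8, 16.2 and 18.1 in the mutants (-0.17 ± 0.25). With 1 wild-type and 2 mutant arrays under 20, it only just reached the level needed for a value, which conditions this difference. Hoxa4, of a more anterior paralog group, was at 22.6 ± 3.03 and 21.1 ± 0.89 (SD, n = 3 each). At these intensities, close to the level of 20, how the background was handled, which no source gives, can set the size of a fold. Of 13 listed HOX partners and chromatin regulators 3 had a value, all with higher means. Kmt2a, the histone methyltransferase MLL1 that maintains HOX expression, was at 19.5, 36.5 and 31.6 in the wild-type and at 54.2, 41.8 and 38.1 in the mutants (0.65 ± 0.27, limma adjusted p = 0.667), and its difference was 0.38 without wild-type replicate 1.

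Across the 27 genes the largest spread was that of wild-type replicate 1, and it ran in both directions. On that array 12 genes lay above and 15 below the mean of the other arrays, by up to 0.81 (Sox1) and down to -1.09 (Tbx15) on the log2 scale. Being above it thus held for 44.4% of these genes, against 2432 of all 8997 probe sets. By mean intensity it held for 36.7% of the 1445 probe sets under 25 and for 28.8% of those from 25 to 35. From 35 to 50 it held for 28.1%, and from 50 to 100 for 22.1%. Wild-type replicate 1 was the highest array for 8 genes, namely Hoxa4, Sox1, Sox3, Sox18, Tbx1, Twist2, Pitx3 and Prrx2, and 7 of these 8 had lower means in the mutants. It was the lowest array for 11 genes, namely Mef2a, Mef2c, Mef2d, Runx1, Sox4, Sox6, Sox9, Tbx15, Tbx18, Mkx and Prrx1, and all 11 had higher means in the mutants, which follows in part from its place in the wild-type mean. Without it, 5 of those 8 and 8 of those 11 had higher means in the mutants, and the medians were 0.0063 and 0.08.

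**Figure D4:**
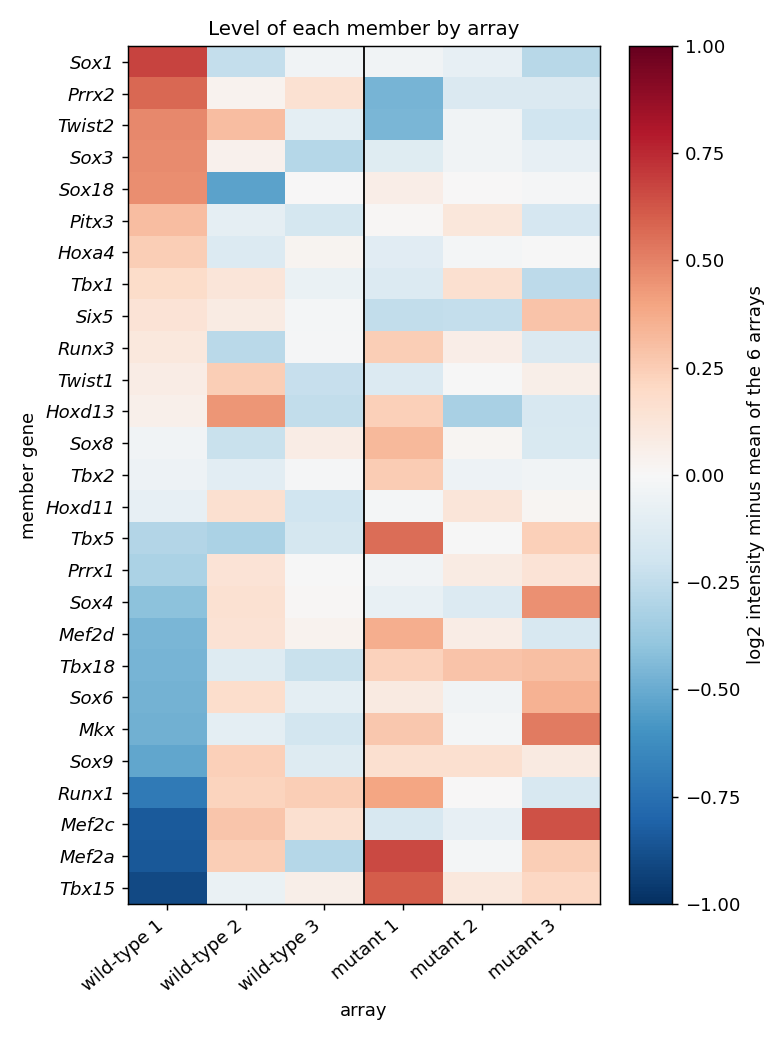
Log2 intensity of each of the 27 genes (rows) on each of the 6 arrays (columns), as the difference from the gene's mean over the arrays, with rows ordered by the value on wild-type replicate 1. The first column runs from clearly high (Sox1) to clearly low (Tbx15), and no other array shows so wide a range.

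Other patterning factors and signals of the limb were read from a fixed list, of which 11 of 40 genes had a value. Of these 8 had higher and 3 lower means, 0 passed, and the median difference was 0.13. The counts were 6 higher and 5 lower without wild-type replicate 1. Zbtb16, a zinc finger factor of limb patterning, had the smallest p, at 14.5, 39.6 and 12.5 in the wild-type and at 188, 127 and 34.5 in the mutants. Wild-type replicate 2 lay above mutant replicate 3, and the log2 difference was 2.28 ± 0.61 (limma adjusted p = 0.559), and 2.08 without wild-type replicate 1. Ptch1, the hedgehog receptor and target, differed by 0.69 ± 0.33, and by 0.39 without that array. Among other skeletal cell factors 22 of 36 had a value, 14 with higher and 8 with lower means, and 0 passed. Without wild-type replicate 1 this turned to 8 higher and 14 lower, and the median from 0.16 to -0.08. Foxo1, a forkhead factor active in osteoblasts, was at 17.7, 23.4 and 29.3 in the wild-type and at 45.9, 52.4 and 30.6 in the mutants (0.87 ± 0.27, limma adjusted p = 0.591), and Zbtb20, a zinc finger factor of hypertrophic chondrocytes, differed by 0.60 ± 0.28. Without that array they were at 0.68 and 0.38.

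The table of RefSeq promoters used here (GRCm38.p6), of 250 bases before to 50 after a gene's start, has entries for 19 of the 27 genes, 30 promoters in all. They had a median GC content of 62.2%, against 52.7% for all 32851 promoters. Below are those of Tbx18, the gene of smallest p, of Mef2a, the MEF2 gene with the highest difference, and of Prrx2 and Twist2, the genes with the lowest differences. The level of 20 conditions the ranks of Tbx18, Prrx2 and Twist2, which served only to choose what to print. Capitals mark matches, on either strand, to motifs that these families are known to bind. The T-box motif was searched as GGTGTGA. The E-box, which TWIST factors bind, was searched as CANNTG and the homeobox motif as TAATTA. The MEF2 motif was searched as CTA and TAG with any 4 bases between them. No match of one motif overlapped that of another in the promoters shown.
Tbx18: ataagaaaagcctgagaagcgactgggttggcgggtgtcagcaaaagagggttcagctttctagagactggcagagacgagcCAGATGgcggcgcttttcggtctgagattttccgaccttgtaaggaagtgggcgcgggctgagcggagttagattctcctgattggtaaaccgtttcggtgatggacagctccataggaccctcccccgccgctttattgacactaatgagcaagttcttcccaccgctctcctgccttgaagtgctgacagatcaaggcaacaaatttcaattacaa
Mef2a: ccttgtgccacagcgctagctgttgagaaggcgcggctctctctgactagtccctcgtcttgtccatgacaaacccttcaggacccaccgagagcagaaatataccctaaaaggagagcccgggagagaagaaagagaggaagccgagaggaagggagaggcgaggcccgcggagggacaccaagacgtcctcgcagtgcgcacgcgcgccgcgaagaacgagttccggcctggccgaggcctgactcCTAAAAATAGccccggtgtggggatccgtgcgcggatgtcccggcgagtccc
Prrx2: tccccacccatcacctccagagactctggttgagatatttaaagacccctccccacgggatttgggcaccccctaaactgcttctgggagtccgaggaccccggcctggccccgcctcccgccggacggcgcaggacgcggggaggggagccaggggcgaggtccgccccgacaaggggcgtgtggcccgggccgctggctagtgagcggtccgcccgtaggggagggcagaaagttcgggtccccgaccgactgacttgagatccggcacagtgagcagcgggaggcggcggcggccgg
Twist2: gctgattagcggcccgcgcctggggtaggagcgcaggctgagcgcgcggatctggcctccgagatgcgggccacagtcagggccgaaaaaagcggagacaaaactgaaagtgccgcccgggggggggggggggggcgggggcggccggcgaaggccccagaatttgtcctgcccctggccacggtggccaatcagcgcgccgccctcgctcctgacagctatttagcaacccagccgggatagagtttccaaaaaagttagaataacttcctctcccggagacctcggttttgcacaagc
In the Mef2a promoter, at chr7:67372809-67373108 on the minus strand, 1 match to the MEF2 motif was found, a motif held by 3.69% of all promoters of this length and by 2 of the 30. In the Tbx18 promoter, at chr9:87731211-87731510 on the minus strand, 1 E-box was found, which 72.3% of all promoters and 18 of the 30 hold. The promoters of Prrx2, at chr2:30845117-30845416 on the plus strand, and of Twist2, at chr1:91801211-91801510 on the plus strand, held no match to any of the motifs. The T-box motif was held by 1 of the 30 promoters (3.98% of all) and the homeobox motif by 4 (5.29% of all). A match describes the letters only.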

How the data were processed

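RNA from newborn forearm bone was hybridised to single-colour whole-transcript arrays, per the labels' protocols. What the authors deposited is intensity, linear, with 1 value per probe set and array. Their background correction, summarisation and scaling are not given in the sources used here. Of the 8997 probe sets, 6398 had exactly 1 symbol in the platform annotation, 576 several and 2023 none. All 27 member symbols were those of RefSeq (GRCm38.p6) by Entrez identifier.

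The log2 of each intensity was used as it stood, unfiltered. For every probe set the 2 groups were compared with lmFit and eBayes (limma 3.58.1, R 4.3.3), two-sided, with Benjamini-Hochberg adjustment over the 8997 probe sets and a threshold of 0.05. All p-values are from this fit, ± after a log2 difference is its SE, and intervals are its 95% intervals. The procedure was tested on simulated data. Tables were made with pandas 2.3.3 in Python 3.11.15, and plots with matplotlib 3.10.9. With 3 arrays per group, the number of arrays limits the precision.

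The members, lists, naming rule and alternatives were chosen with earlier results of these data known. The rule gave values for the 12 genes of smallest p, for genes whose groups did not overlap and for genes with a textbook role in the forearm, and in each pathway list for up to 2 genes of smallest p. Promoters to print, and marker genes beside a member, were chosen after their values were seen. Alternatives tried were leaving out each array, array weights, the replicate block, 1 value per gene, median centring, quantile normalization, robust variances with a trend, a filter on the dimmest 25% of probe sets and other thresholds.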

Additional observations from a re-analysis of the deposited data

How the results depend on the processing

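Under all 14 alternative fits 0 of the 27 genes were called, and at the other threshold, an unadjusted p under 0.05, 4 were. The count over all probe sets was 0 with all arrays, 4 with array weights and 2 with 1 value per gene, either way of choosing it; it ranged from 0 to 15 when an array was left out, with 15 reached without mutant replicate 3. The number of the 27 genes at an unadjusted p under 0.05 was recounted under each alternative after the data were seen. With all arrays it was 4 in the main fit (7.44% of all probe sets) and 4 with robust variances and a trend (7.42%). It was 5, with Tbx15 added, after quantile normalization (9.49%) or median centring (9.6%). With 1 value per gene it was also 5, with Tbx15 added, for the brightest probe set (9.76% of 5780 genes) and for the mean over probe sets (9.69%). It was 2 without the dimmest 25% of probe sets (7.34%, with 15 of the 27 left) and 2 with array weights (15.7%). When an array was left out it was 1 to 5: 1 without mutant replicate 1 (3.58%) or mutant replicate 3 (9.31%), 2 without wild-type replicate 1 (6.61%) or mutant replicate 2 (4.37%), 3 without wild-type replicate 3 (6.91%) and 5 without wild-type replicate 2 (10.8%). Tbx18, whose p-value the level of 20 conditions, was in each of these counts except those without the dimmest 25% or mutant replicate 2. Prrx2 was in the counts of 4 or 5 with all arrays and in the count without wild-type replicate 2. Tbx18 was the only gene without mutant replicate 1 or mutant replicate 3. When an array was left out, Tbx5 was counted only without wild-type replicate 1 or mutant replicate 2. Mkx was counted only without wild-type replicate 2 or mutant replicate 2. The median difference over the 27 genes was 0.0142 to 0.13 when an array was left out, lowest without mutant replicate 1, where the median over all probe sets was 0.06.

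Nothing in the labels says that a replicate number marks a shared litter. Deviations from the group means of same-numbered arrays correlated at -0.11, -0.03 and 0.32 over probe sets, and not every array correlated best with its own number. Such correlations over 3 arrays per group cannot decide whether same-numbered arrays were paired. With the replicate block, 2 of the 27 genes, Tbx5 and Tbx18, were at an unadjusted p under 0.05 (7.57% of all probe sets), 0 were called, and the smallest adjusted p was 0.637.

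Leaving out 1 array in turn kept the sign of 15 of the 27 genes, Tbx18 and Prrx2 among them, and turned that of 12. Their ranges were -0.18 to 0.0078 for Hoxa4, -0.33 to 0.016 for Hoxd13, -0.091 to 0.47 for Mef2c, -0.12 to 0.12 for Pitx3, -0.0042 to 0.22 for Prrx1, -0.15 to 0.32 for Runx1, -0.45 to 0.0048 for Sox1, -0.22 to 0.28 for Sox18, -0.34 to 0.042 for Sox3, -0.020 to 0.28 for Sox4, -0.0072 to 0.23 for Sox8 and -0.19 to 0.050 for Twist1. Array weights turned Mef2c (-0.10), Pitx3 (0.15), Runx1 (-0.11), Sox3 (0.059), Sox4 (-0.032) and Twist1 (0.022). Sox18 turned with quantile normalization (-0.035) and median centring (-0.019). In each case the cause was not tested. Tbx5, Tbx15, Mkx and Mef2a kept their sign in every fit that held them. So did Twist2, but it was under 20 on 1 wild-type and 2 mutant arrays, and no probe set was under 20 on more than 3. The level of 20 thus conditions its difference as well. The sign of Tbx18 and Prrx2 was fixed by that level. List counts without wild-type replicate 1 were added after the data were seen. Signal close to an intensity of 20 limits the HOX genes, Pitx3, Six5, Tbx18, Prrx2 and Twist2 most.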
